A study of Mus musculus with 13 samples.

Results

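The SLIT and ROBO genes form a small ligand and receptor system, and 6 of them were followed here in mouse splenic B cells. The 3 ligand genes were Slit1, Slit2 and Slit3, and the 3 receptor genes were Robo1, Robo2 and Robo3. They were taken by symbol from 23336 gene symbols with a complete row in the count tables. Slit3 was picked because its count differed widely between genotypes at a low level, so its genotype difference is given as a description with no test.

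SLIT proteins are large secreted glycoproteins with leucine-rich repeats, and ROBO proteins are their single-pass transmembrane receptors. Binding recruits adaptor and regulatory proteins to the receptor tail and changes the actin cytoskeleton. The system is best known for repelling growing axons from the midline of the nervous system, and SLIT2 is also known to modulate leukocyte chemotaxis.

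RNA from B cells isolated by CD43-bead negative selection was sequenced in 13 libraries over 4 groups. Control cells were labelled Regnase-1+/+ hCD20TamCre and deficient cells Regnase-1f/f hCD20TamCre, so every group carried the tamoxifen-inducible Cre driven from human CD20 sequences, which acts in B cells. Regnase-1, encoded by Zc3h12a, is a ribonuclease that degrades mRNAs through stem-loops near their 3′ ends. Unstimulated cells, labelled naive and untreated, gave 4 control and 3 deficient libraries, and cells treated with anti-IgM F(ab')2 for 4 hours to engage the B cell receptor gave 3 libraries of each genotype. The sources used here do not give the age of the mice or the tamoxifen schedule, and no label says that each library came from a separate mouse, so p-values measure the spread between these libraries.

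Library totals ran from 21407724 to 33244755 counts, and 3 counts, taken as the floor, equalled 0.0902 to 0.140 CPM (counts scaled to library size). Before stimulation Zc3h12a lay at 125 ± 4.08 CPM (SD, n = 4) in control cells, deficient cells lying at 99.9 ± 10.8 CPM (n = 3), and at 153 ± 5.58 and 103 ± 9.99 CPM (n = 3 each) after stimulation. The labels give no deleted segment, so reads outside it could still be counted. The extent of deletion was not measured, and the cause of the remaining RNA was not tested. In edgeR the gene was called lower in deficient cells after stimulation, at a log2 change of -0.58 ± 0.08 (SE, adjusted p = 0.000784), and not in unstimulated cells, at -0.32 ± 0.07 (adjusted p = 0.106). B cell markers summed to 2308 CPM or more in every library. Markers of other blood cells were counted as well. Erythroid markers summed to 503 to 723 CPM in control and 134 to 817 CPM in deficient unstimulated libraries. After stimulation they summed to 381 to 485 and 83.4 to 768 CPM. Myeloid markers summed to at most 515 CPM (a deficient unstimulated library) and neutrophil markers to at most 232 CPM (a control unstimulated library). The part of these cells in the Slit3 difference was not tested. Both libraries of deficient number 1 stood apart from the other deficient ones, with a chi-square per gene of 22.7 to 33.5 against them, compared with 10.6 and 11.5 between numbers 2 and 3. Xist exceeded the Y-linked gene Ddx3y in 3 of 4 unstimulated control, 2 of 3 stimulated control and 1 of 3 deficient libraries in each state. That deficient library was number 1, so sex differed in proportion between the genotypes.

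Slit2 and Slit3 each host a copy of the microRNA miR-218. The copies are shown because both lie inside ligand genes of this family, one of them Slit3. Mir218-1 lies on the plus strand in Slit2 at chr5:48223942-48224051, and Mir218-2 on the plus strand in Slit3 at chr11:35616816-35616925, both between annotated exons of the host. The sequences are RefSeq entries on GRCm38.p6. Capitals mark the mature arms in the hairpins and the seed, bases 2 to 8, in the mature microRNAs.
Mir218-1 hairpin: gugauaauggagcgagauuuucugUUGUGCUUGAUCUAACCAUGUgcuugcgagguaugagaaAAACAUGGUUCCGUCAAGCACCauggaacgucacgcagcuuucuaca
Mir218-2 hairpin: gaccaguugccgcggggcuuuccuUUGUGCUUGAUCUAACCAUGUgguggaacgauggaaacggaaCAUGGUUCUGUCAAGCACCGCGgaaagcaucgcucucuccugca
mmu-miR-218-5p: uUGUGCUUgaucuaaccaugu
mmu-miR-218-1-3p: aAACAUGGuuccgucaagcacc
mmu-miR-218-2-3p: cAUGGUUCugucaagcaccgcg
The 5p arm is the same in both hairpins, whereas the 3p arms start at different bases and so differ in seed. Mir218-2 had 0 counts in all 13 libraries, and Mir218-1 had 2 counts in all, with 0 in 11 libraries. No small RNA library was analysed here, so mature microRNA levels are not given.

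Slit3 held most of the SLIT and ROBO counts in deficient libraries, at 73.4 to 85.5%, and 23.7 to 37.5% in control libraries. It lies on the plus strand of chromosome 11 from 35121224 to 35708507 (mm10), spans 587.3 kb and has 36 exons in its longest annotated protein-coding transcript. Its raw counts were 8, 12, 9 and 15 in control unstimulated libraries 1 to 4 and 100, 138 and 82 in deficient unstimulated libraries 1 to 3. After stimulation they were 6, 9 and 12 in control libraries and 83, 106 and 91 in deficient libraries. Every deficient library lay above every control library in both states.

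Scaled by trimmed mean of M-values (TMM) factors, Slit3 stood at 0.295, 0.416, 0.317 and 0.491 CPM in control unstimulated libraries and at 2.77, 4.16 and 3.71 CPM in deficient unstimulated libraries. In stimulated cells the control values were 0.195, 0.329 and 0.450 CPM, whereas the deficient values were 3.74, 3.33 and 3.79 CPM. The highest control value and the lowest deficient value were separated 5.65-fold before and 7.40-fold after stimulation. Among the 13574 genes tested, the genotypes did not overlap for 8.72% before stimulation, 3.14% lying higher in deficient cells, and for 17.8% after it, 7.8% lying higher. Nothing is read from these shares for Slit3, which was chosen on this contrast.

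**Figure D1:**
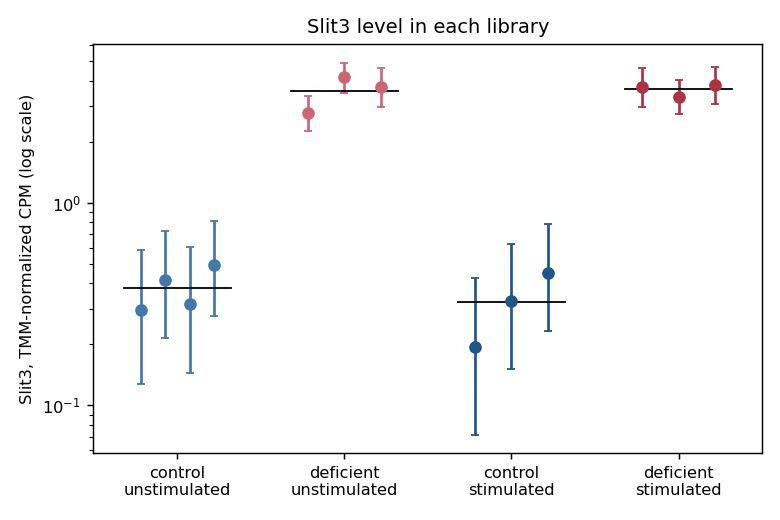
Slit3 level in TMM-normalized CPM (log scale) in each of the 13 libraries, by group; bars are exact 95% Poisson intervals of the count, which cover counting error only, and black lines are group means. The control libraries lie between 0.195 and 0.491 CPM and the deficient libraries between 2.77 and 4.16 CPM.

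Mean Slit3 levels were 0.379 ± 0.0909 CPM (SD, n = 4) in control and 3.55 ± 0.708 CPM (n = 3) in deficient unstimulated cells, a ratio of 9.35. After stimulation they were 0.325 ± 0.128 CPM (n = 3) and 3.62 ± 0.250 CPM (n = 3), a ratio of 11.2. The fitted log2 differences were 3.20 ± 0.30 (SE) and 3.47 ± 0.34. By size of rise Slit3 ranked number 6 of 13574 tested genes in unstimulated and number 2 in stimulated cells. The gene was still of low abundance in deficient cells, where 73.4% of tested genes in unstimulated and 71.4% in stimulated cells had a higher mean CPM, against 93.4% and 92.8% in control cells. In bulk RNA, a change in the share of cells that express a gene and a change in RNA per cell cannot be told apart.

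Slit3 values are also given by sex genes, with 1 library of a genotype on each side. Among libraries with more Xist than Ddx3y, Slit3 averaged 0.408 CPM in 3 control libraries and 2.77 CPM in 1 deficient unstimulated library, a ratio of 6.80. Among those with more Ddx3y than Xist, it stood at 0.295 CPM in 1 control library and averaged 3.93 CPM in 2 deficient libraries, a ratio of 13.3. After stimulation the ratios were 9.60 and 18.3. The part of sex in the Slit3 difference was not tested on independent values. Leaving out both libraries of deficient number 1 gave log2 differences of 3.35 and 3.46.

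On the log2 values the authors deposited, Slit3 ran from 4.39 to 4.58 in control and from 5.82 to 6.17 in deficient unstimulated libraries, and from 4.28 to 4.57 and from 6.002 to 6.11 after stimulation. The genotypes did not overlap there either, but these values come from the same libraries on which Slit3 was chosen. The limma differences on that scale were 1.54 and 1.62, smaller than from the counts. The sources used here do not say which transformation was applied, so these differences are not converted to fold changes.

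B cell receptor engagement left no called change in Slit3, and this contrast did not enter its choice. In edgeR without a block, the log2 change on stimulation was -0.24 ± 0.34 (SE, adjusted p = 0.568) in control cells and 0.03 ± 0.28 (adjusted p = 0.937) in deficient cells. These standard errors leave room for moderate changes in either direction. By comparison 60.3% of tested genes were called on stimulation in control and 57.9% in deficient cells. The responses differed by 0.27 ± 0.44 between genotypes.

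Slit1, the ligand gene with the next highest level, was sparsely counted and was not called in any of the 5 comparisons. It lies on the minus strand of chromosome 19 from 41600257 to 41743665. Its counts were 9, 10, 9 and 12 in control unstimulated, 5, 13 and 1 in deficient unstimulated, 1, 9 and 11 in control stimulated and 12, 20 and 10 in deficient stimulated libraries. The genotypes overlapped before stimulation, and after stimulation the control library with 11 counts stood above the deficient library with 10. Scaled to depth these libraries lay at 0.413 and 0.416 CPM, so that the stimulated genotypes were just separated. A separation in that direction was found for 7.8% of tested genes, and in either direction for 17.8%. As TMM-normalized levels the means were 0.347 ± 0.0328 CPM (SD, n = 4), 0.192 ± 0.179 CPM, 0.258 ± 0.200 CPM and 0.529 ± 0.107 CPM (n = 3 each), in the same order of groups.

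The edgeR log2 difference of Slit1 between genotypes was -0.78 ± 0.69 (SE, adjusted p = 0.815) in unstimulated cells, where 0.324% of tested genes were called (0.125% higher and 0.199% lower), and 1.05 ± 0.70 (adjusted p = 0.630) in stimulated cells, where 2.01% were called (0.751% higher and 1.26% lower). Its edgeR response to stimulation was -0.45 ± 0.68 (adjusted p = 0.592) in control and 1.39 ± 0.71 (adjusted p = 0.110) in deficient cells. Without deficient unstimulated library 2, the deficient response became 2.37 and was called (edgeR adjusted p = 0.0300). The difference of the responses was 1.83 ± 0.98 and was not called in edgeR (adjusted p = 0.9997), and 0.00737% of tested genes were called in that comparison.

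Slit2, whose product is the SLIT most often studied in leukocytes, did not pass the count filter. It lies on the plus strand of chromosome 5 from 47983138 to 48307733. Its counts were 0, 4, 3 and 2 in control unstimulated, 7, 6 and 6 in deficient unstimulated, 7, 8 and 3 in control stimulated and 0, 0 and 3 in deficient stimulated libraries. Pooled over libraries this was 0.0783 CPM (95% exact Poisson interval 0.0358 to 0.149), 0.208 CPM (0.125 to 0.325), 0.212 CPM (0.126 to 0.335) and 0.0385 CPM (0.00793 to 0.112). Before stimulation each deficient library held more counts than any control library, a separation found in that direction for 3.14% of tested genes, whereas after stimulation the genotypes met at 3 counts. No library held more than 8.

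**Figure D2:**
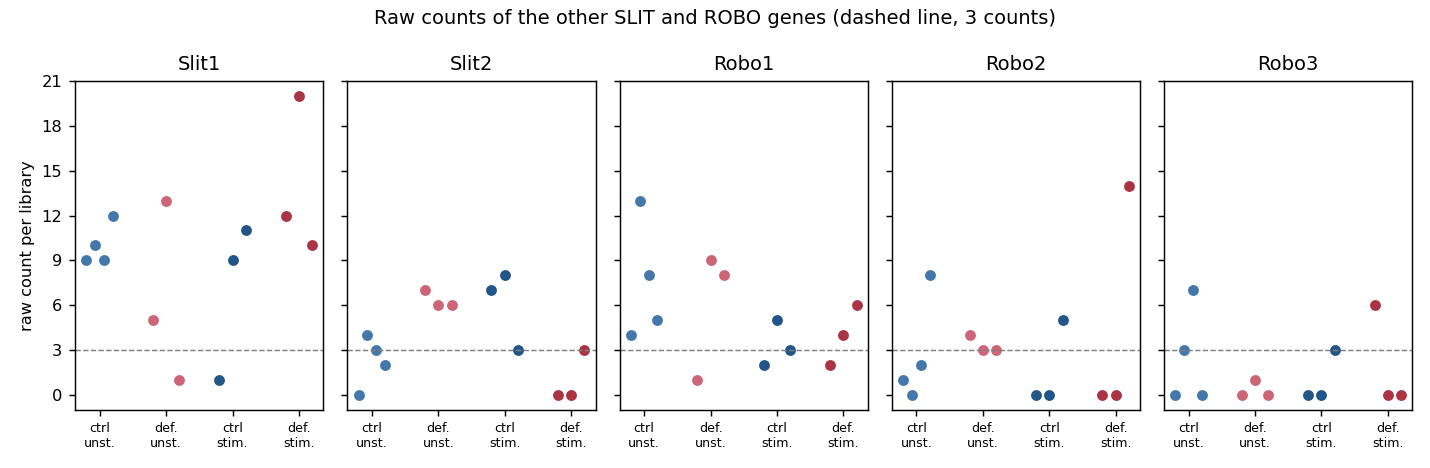
Raw counts of Slit1, Slit2, Robo1, Robo2 and Robo3 in each library (points), by control (ctrl) or deficient (def.) genotype and unstimulated (unst.) or stimulated (stim.) state, with a dashed line at 3 counts. No gene exceeds 20 counts in any library.

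The receptor genes were near the detection floor, and none of the 3 passed the filter. Robo1, on chromosome 16 from 72308306 to 73046095, had 4, 13, 8 and 5 counts in control unstimulated, 1, 9 and 8 in deficient unstimulated, 2, 5 and 3 in control stimulated and 2, 4 and 6 in deficient stimulated libraries. All 13 libraries held at least 1 count of Robo1, and the genotypes overlapped in both states. Pooled levels were 0.261 CPM (95% exact Poisson interval 0.176 to 0.372), 0.197 CPM (0.117 to 0.311), 0.118 CPM (0.0566 to 0.217) and 0.154 CPM (0.0795 to 0.269).

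Robo2, on chromosome 16 from 73891839 to 74411825, had 1, 0, 2 and 8 counts in control unstimulated, 4, 3 and 3 in deficient unstimulated, 0, 0 and 5 in control stimulated and 0, 0 and 14 in deficient stimulated libraries. The 14 counts in deficient stimulated library 3 were the whole sum of that group. Robo3, on chromosome 9 from 37415669 to 37433246, encodes a receptor that in mammals binds NELL2 rather than SLIT with high affinity. It had 0, 3, 7 and 0 counts in control unstimulated, 0, 1 and 0 in deficient unstimulated, 0, 0 and 3 in control stimulated and 6, 0 and 0 in deficient stimulated libraries, so that 8 of 13 libraries held none. Counts of Robo2 and Robo3 overlapped between the genotypes in both states.

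In an edgeR fit with no filter, Slit2, Robo1, Robo2 and Robo3 gave 20 gene-by-comparison tests, of which 0 were called and 1 had an unadjusted p under 0.05. The lowest adjusted p was 0.146. What size of difference could be detected at these counts was not measured.

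Per kilobase of the longest annotated protein-coding transcript, mean levels over all 13 libraries were 0.353 CPM per kb for Slit3, 0.0586 for Slit1, 0.0257 for Robo1, 0.0132 for Slit2, 0.0132 for Robo2 and 0.0122 for Robo3. Slit2, Robo1, Robo2 and Robo3 were not separated by more than their spread between libraries. In control unstimulated cells Slit3 and Slit1 were also close, at 0.0726 ± 0.0174 and 0.0611 ± 0.00578 CPM per kb (SD, n = 4). Slit3 held 671 counts, or 69.0% of the counts of the 6 genes. Its share was 23.7 to 36.4% in control and 81.2 to 85.5% in deficient libraries before stimulation, and 29.0 to 37.5% and 73.4 to 81.5% after it. The other 5 genes together held 14 to 30, 17 to 32, 10 to 25 and 20 to 33 counts per library in these groups, and the genotypes overlapped in both states.

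Markers of stromal and endothelial cells, in which SLIT genes are known to be expressed, were examined beside the Slit3 difference. The 10 fibroblast and reticular stroma markers summed to 1.70 to 3.76 CPM in control and 1.90 to 2.24 CPM in deficient unstimulated libraries, and to 1.39 to 4.32 and 0.881 to 1.35 CPM after stimulation. This sum was within the control range in unstimulated and below it in stimulated deficient libraries, and Ccl21a was at 0 in all 13 libraries. The 8 endothelial markers summed to 209 to 226 CPM in control and 236 to 297 CPM in deficient unstimulated libraries, and to 37.6 to 54.7 and 59.6 to 71.1 CPM after stimulation, so this sum lay higher in deficient cells.

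Most of the endothelial sum was Pecam1, which B cells also express, at mean levels of 212 and 261 CPM in unstimulated control and deficient cells and 35.4 and 54.3 CPM after stimulation. Cdh5, which encodes the endothelial cadherin, averaged 1.94, 2.52, 1.62 and 1.62 CPM in the same order, and Vwf averaged 2.40, 3.20, 2.19 and 1.94 CPM. Kdr, a vascular growth factor receptor gene, averaged 0.873 and 1.12 CPM in unstimulated control and deficient cells and 2.32 and 3.97 CPM after stimulation, and Egfl7 averaged 0.454, 0.666, 0.752 and 0.884 CPM. Stab2 averaged 1.22, 0.682, 1.54 and 1.42 CPM, Emcn was at 0 in 12 of 13 libraries, and Tek had at most 6 counts. Pecam1, Kdr and Egfl7 thus had higher means in deficient cells in both states, and Cdh5 and Vwf did before stimulation. Stab2 had lower means in deficient cells in both states, as did Tek near the floor (0.138, 0.0864, 0.0751 and 0.0314 CPM), and Vwf did after stimulation. The part of endothelial transcripts in the Slit3 difference was not tested.

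The genes beside Slit3 did not share its difference. The 3 nearest protein-coding genes on each side were Spdl1 (a spindle checkpoint gene, listed as Ccdc99), Dock2 (a Rac activator of leukocytes) and Fam196b on the lower side, and Pank3 (a pantothenate kinase), Fbll1 and Rars (a tRNA synthetase) on the upper side. Pank3 begins 60977 bp from Slit3, and Fbll1 did not pass the filter. The edgeR log2 differences between genotypes were 0.07 and -0.23 for Spdl1, -0.03 and -0.01 for Dock2, 0.21 and 0.33 for Fam196b, -0.06 and -0.11 for Pank3 and 0.06 and -0.02 for Rars, in unstimulated and stimulated cells. None of the 5 was called in either state, where 0.324% and 2.01% of all tested genes were.

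Within 5 Mb of Slit3, a window chosen after the values were seen, 31 of 47 protein-coding genes with a row were tested. Snrnp25, which encodes a protein of the minor spliceosome, was called lower in deficient cells in both states in edgeR, at -0.70 (adjusted p = 0.00423) and -0.51 (adjusted p = 0.0211). Il9r, the interleukin 9 receptor gene, was called lower after stimulation at -0.80 (edgeR adjusted p = 0.0180) and lay at -0.75 before it (adjusted p = 0.0521). These genes lie 2912240 and 2920945 bp below Slit3. The calls were 1 of 31 before stimulation, against 0.324% of all tested genes, and 2 of 31 after it, against 2.01%. No gene in the window was called higher, against 0.125% and 0.751% of all tested genes. The largest rise, not called, was that of Stc2 at 1.57 and 1.87 (edgeR adjusted p = 0.564 and 0.468). In all, 13 and 11 of the 31 genes lay above 0.

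**Figure D3:**
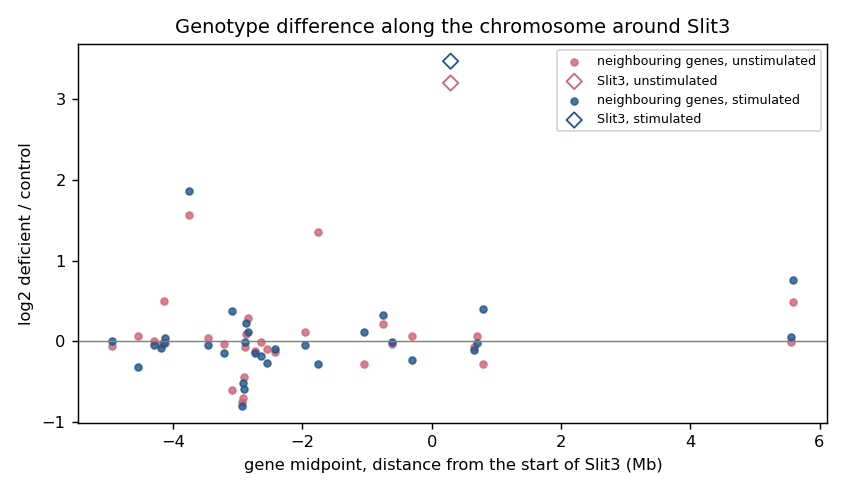
Log2 difference of deficient against control for tested genes within 5 Mb of Slit3 (filled points) and for Slit3 (diamonds) in unstimulated and stimulated cells, against the distance of the gene midpoint from the start of Slit3 in Mb. Slit3 lies at 3.20 and 3.47, and the highest neighbouring gene, Stc2, at 1.57 and 1.87 (not called).

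A list of 41 further pathway genes, holding coreceptors, other ligands, exchange factors and GTPase activators, kinases, adaptors, small GTPases, actin regulators and receptor-turnover genes, had 37 members that passed the filter. The endothelial receptor gene Robo4 did not pass, with 0 counts in 10 of 13 libraries and at most 5 in any. Nell2, the ligand gene of ROBO3, had 0 counts in all libraries.

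Between genotypes, 0 of 37 pathway genes were called in unstimulated cells, against 0.324% of all tested genes, and the list's median log2 difference was -0.09 against -0.02 for all tested genes. At an unadjusted level the lowest p belonged to Plxna1, a semaphorin receptor gene that also acts as a SLIT receptor, at -0.36 ± 0.09 (SE, edgeR adjusted p = 0.161), and Sdc1, at -0.59 ± 0.15 (edgeR adjusted p = 0.161). DESeq2 called Sdc1 in this comparison (adjusted p = 0.00788). With sex as a term, edgeR called Sdc1 (-0.74, adjusted p = 0.00460) and Cxcr4, a chemokine receptor gene (-0.42, adjusted p = 0.0359). Without deficient unstimulated library 3, edgeR also called Sdc1 (adjusted p = 0.0493).

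In stimulated cells 1 pathway gene was called higher and 1 lower in deficient cells, 2 of 37 against 2.01% of all tested genes, and the median was -0.04 against 0.00. Rac2, a small GTPase gene of blood cells, rose from 279 ± 12.0 CPM (SD, n = 3) in control to 396 ± 11.6 CPM (n = 3) in deficient cells, a log2 change of 0.51 ± 0.06 (SE, edgeR adjusted p = 0.000299). Sdc1 encodes syndecan-1, a heparan sulfate proteoglycan of the kind that binds SLIT and a marker of plasma cells. It fell from 20.3 ± 1.58 CPM (n = 3) to 12.7 ± 1.08 CPM (n = 3), a log2 change of -0.68 ± 0.16 (edgeR adjusted p = 0.0486).

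The Sdc1 call ended when any of the 6 stimulated libraries was left out, at log2 changes of -0.74 to -0.61 (edgeR adjusted p from 0.0839 to 0.185). It held without both libraries of deficient number 1 (-0.61, edgeR adjusted p = 0.00263), with sex as a term (-0.78, edgeR adjusted p = 0.00169) and in DESeq2 (-0.69, adjusted p = 0.000873). The 5 plasma cell markers, Sdc1 among them, summed to 3128 to 3518 CPM in control and 2443 to 2864 CPM in deficient stimulated libraries. In unstimulated libraries they summed to 827 to 967 and 764 to 901 CPM. The sum thus rose on stimulation, whereas mean Sdc1 fell from 43.3 to 20.3 CPM in control and from 28.8 to 12.7 CPM in deficient cells. The sum therefore does not follow Sdc1. The part of plasma cells in the Sdc1 difference was not tested. With a replicate block that matched equal numbers across the genotypes, Sdc1 was not called (edgeR adjusted p = 0.0986). Same-numbered libraries of different genotype did not deviate together (correlations of -0.67 to -0.05), so nothing is read from this block for Sdc1. Rac2 remained called in each setting tried.

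B cell receptor stimulation changed 26 of 37 pathway genes in control cells, 9 higher and 17 lower, and 23 in deficient cells, 8 higher and 15 lower. Of all tested genes, 28.5% were called higher and 31.8% lower in control cells, and 28.3% and 29.6% in deficient cells. The list's medians were -0.25 and -0.18, against -0.13 and -0.11 for all tested genes. That fit had no block by number. With a replicate block, 8855 of 13574 tested genes were called in control and 8900 in deficient cells, against 8191 and 7856 without it.

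Among receptors and coreceptors, 5 of 8 tested genes changed in control cells, 1 higher and 4 lower, and 6 changed in deficient cells, 2 higher and 4 lower. Dag1, which encodes dystroglycan, an extracellular SLIT-binding protein, fell from 77.7 ± 2.72 (SD, n = 4) to 31.7 ± 1.14 CPM (n = 3) in control cells, a log2 change of -1.30 ± 0.07 (edgeR adjusted p = 1.8e-10). In deficient cells its log2 change was -1.18 ± 0.07 (edgeR adjusted p = 1.2e-09).

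All 4 small GTPase genes were tested, and 2 of them, Rac2 and Rac1, fell in both genotypes. Rac2 fell from 659 ± 25.4 (SD, n = 4) to 279 ± 12.0 CPM (n = 3) in control cells and from 702 ± 40.9 to 396 ± 11.6 CPM (n = 3 each) in deficient cells. The edgeR log2 changes were -1.24 ± 0.06 (SE, adjusted p = 4.7e-11) and -0.83 ± 0.06 (adjusted p = 8.4e-09). Rac1, the ubiquitous paralog, fell by 0.55 in control and by 0.58 in deficient cells on the log2 scale.

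Of the 5 actin regulators, Evl and Vasp, members of the Ena/VASP family that extends actin filaments, were named by the smallest p. Evl fell from 131 ± 7.85 (SD, n = 4) to 38.8 ± 6.55 CPM (n = 3) in control and from 137 ± 11.2 to 42.7 ± 1.62 CPM (n = 3 each) in deficient cells, log2 changes of -1.76 ± 0.10 and -1.68 ± 0.10. Vasp fell by 0.76 in control and by 0.52 in deficient cells on the log2 scale.

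Among the exchange factors and GTPase activators, Sos2, an exchange factor recruited to ROBO through adaptors, fell by 0.91 in control and by 0.62 in deficient cells. Srgap2, which encodes a GTPase activating protein that binds ROBO, fell by 1.16 on the log2 scale in control cells (edgeR adjusted p = 2.5e-06). In deficient cells it fell from 28.7 ± 1.45 to 10.9 ± 1.43 CPM (SD, n = 3 each), a log2 change of -1.40 ± 0.15 (edgeR adjusted p = 6.8e-07).

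**Figure D4:**
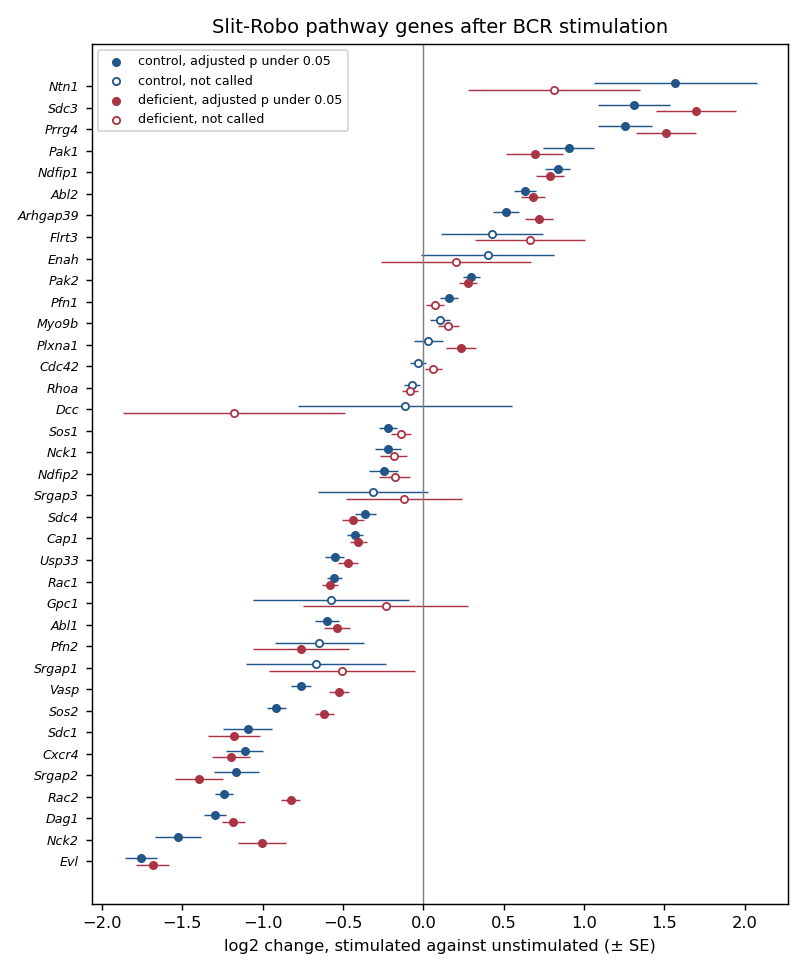
Log2 change on stimulation, with its SE, of the 37 tested pathway genes in control (blue) and deficient (red) cells; filled points had an edgeR adjusted p under 0.05. Evl, Dag1 and Rac2 fell in both genotypes, and 26 genes in control and 23 in deficient cells were called.

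Responses to stimulation were called different between genotypes for 0 of 37 pathway genes in edgeR without a block, against 0.00737% of all tested genes. That fit leaves out any pairing of the states by number. The difference of the Rac2 responses was 0.42 ± 0.08 (SE, edgeR adjusted p = 0.125). With a replicate block by genotype and number it was 0.43 (edgeR adjusted p = 0.00390). That block takes equal numbers as pairs, which is uncertain for control numbers 2 and 3. The fit with this block called 68 of 13574 tested genes, and the fit without it called 1. DESeq2 (adjusted p = 0.000431), edgeR with upper-quartile factors (0.0264) or sex as a term (0.0389), and edgeR without deficient stimulated library 1 (0.0351) also called it. That of Sos2 was 0.30 ± 0.08 (edgeR adjusted p = 0.547).

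The genes whose levels followed Slit3 most closely were found by Pearson correlation of log2 CPM over the 13 libraries, given as a description. Since Slit3 splits these libraries into separate clusters by genotype, the coefficient largely ranks genes by how cleanly they split the same way. The most similar were Krt222 (a keratin family gene, r = 0.944), Tnfaip8 (0.929), Pikfyve (a lipid kinase gene, 0.926), Fcrl5 (an Fc receptor-like gene of B cells, 0.902) and Heatr6 (0.892). The most opposed were Lrrc8d (an anion channel subunit gene, -0.955), Junb (an AP-1 transcription factor gene, -0.942) and Syngr2 (-0.925).

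Within the 7 control libraries the coefficients of the 5 most similar genes ran from -0.22 for Heatr6 to 0.81 for Krt222, and within the 6 deficient libraries from -0.19 for Krt222 to 0.54 for Pikfyve. Krt222 averaged 7.14 ± 1.37 CPM (SD, n = 4) in control and 13.0 ± 1.55 CPM (n = 3) in deficient unstimulated cells, and 5.56 ± 0.801 and 15.9 ± 1.71 CPM (n = 3 each) after stimulation. Fcrl5 averaged 15.4 ± 1.71, 27.9 ± 7.25, 12.8 ± 1.44 and 33.7 ± 11.3 CPM in the same order. None of these genes differed between genotypes by as large a ratio as Slit3, which was chosen for its large genotype difference.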

How the data were processed

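The authors deposited raw read counts per gene symbol for each of 13 libraries. TopHat, HTSeq, DESeq2 and mm10 are listed without versions, per the submitters' processing notes. The authors also deposited log2 values, normalized with DESeq2 per the same notes. The sources used here do not give the form of that transformation, or the annotation, strand setting and multi-mapping rule.

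Counts were fitted with edgeR 4.0.16 (R 4.3.3) quasi-likelihood tests over all 13 libraries with TMM factors. The main fit had group means only and no block, so its stimulation tests leave out any pairing by number. Genes passed filterByExpr at a minimum count of 10, leaving 13574. Benjamini-Hochberg adjustment ran over all of them, and a gene was called at an adjusted p under 0.05. Alternatives used DESeq2 1.42.0, limma 3.58.1 on the log2 values, other scalings and filters, and left-out libraries. No pair of replicates agreed within sampling noise (chi-square per gene 7.78 to 33.5). Poisson intervals and floors cover counting error only.

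Named were the 6 genes, Robo4, Zc3h12a, the called pathway genes (at most 6 per comparison by p, or the 2 lowest), 5 most similar and 3 most opposed genes, and 3 neighbours a side. Members and lists were chosen with earlier results of these data known. Numbers were taken to pair the states within a genotype, as deviations from group means correlated at 0.47 to 0.86 over 9470 genes. Unequal numbers within a genotype were not compared. Ddx3y had 71 counts in control unstimulated number 2 and 0 in number 3, but 0 and 59 after stimulation. The pairing of these control numbers is therefore uncertain. Across genotypes the deviations of equal numbers correlated at -0.67 to -0.05, so equal numbers were not read as pairs of the genotypes. The replicate block of the genotype comparisons still matched equal numbers across genotypes. That of the responses to stimulation was by genotype and number. Gene positions come from GENCODE vM21.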

Additional observations from a re-analysis of the deposited data

Results flagged for a closer look

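Of 30 genes checked for a library far from the others of the control unstimulated group, 2 had one, and chance gives about 1 in 20. For Fam196b, a neighbour of Slit3, that library stood highest at 0.958 CPM, and for Lrrc8d, opposed to Slit3, it stood lowest at 252 CPM.

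The response of Rac2 to stimulation differed between genotypes by 0.433 on the log2 scale in the fit with a replicate block (edgeR adjusted p = 0.00390), with a smaller fall in deficient cells. Without the block the difference was 0.42 and was not called (edgeR adjusted p = 0.125). Of 13574 tested genes, 68 were called with the block and 1 without it. The block takes equal numbers as pairs, which is uncertain for control numbers 2 and 3.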

How the results depend on the processing

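Slit3 was chosen on its genotype difference in these same libraries, so its values across settings are a description. It stayed higher in deficient cells in every setting. Its log2 difference ran from 3.07 to 3.35 in unstimulated and from 3.20 to 3.78 in stimulated cells when single libraries were left out, but was 1.54 and 1.62 by limma on the deposited log2 values. Its uncalled response in control cells ran from -0.54 to 0.032 over left-out libraries, the highest without control stimulated replicate 1. In deficient cells it ran from -0.12 to 0.16, was -0.058 with upper-quartile factors and -0.085 without both libraries of deficient number 1. The Slit1 response ran from -0.96 to 0.094 in control and from 1.001 to 2.37 in deficient cells, where 1 left-out library brought a call. Slit1 gave no value under the stricter filter, nor where DESeq2 set its adjusted p to missing. With a replicate block the Slit1 values moved no call (1.53 in deficient cells, adjusted p = 0.0667).

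Pathway calls in unstimulated cells, 0 in edgeR, numbered 1 in DESeq2, 2 with sex as a term (added after the data were seen) and 0 to 1 over left-out libraries. In stimulated cells they numbered 6 in DESeq2, 1 with the block matching replicate numbers across genotypes, 1 in limma and 1 to 2 over left-out libraries. For the difference of responses they numbered 1 with upper-quartile factors, DESeq2, the replicate block, sex as a term or without both libraries of deficient number 1, and 0 to 1 over left-out libraries. Each such call was Rac2, and the cause was not tested. Of the 5 genes most like Slit3, 2 remained by Spearman correlation.

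The other signs that turned were of uncalled neighbours. Dock2 was 0.0032 and 0.0023 with upper-quartile factors, 0.0026 and 0.0032 with only the groups compared, and 0.019 and 0.025 without both libraries of deficient number 1. Without these libraries Fam196b was -0.044, Spdl1 -0.063 and Pank3 0.055 in unstimulated cells, and Rars 0.046 in stimulated cells. Over single left-out libraries the ranges were -0.074 to 0.022 and -0.059 to 0.025 for Dock2 in unstimulated and stimulated cells. In unstimulated cells they were -0.049 to 0.65 for Fam196b, -0.058 to 0.15 for Spdl1 and -0.13 to 0.058 for Pank3, and for Rars in stimulated cells -0.076 to 0.046. Low counts limit Slit1, Slit2 and the ROBO genes.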
